A study of Homo sapiens with 6 samples.

Results

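The Hippo pathway was followed at the mRNA level through 10 of its genes in ZR-75-1 cells, an ER-positive breast cancer line. These were the coactivators YAP1 and WWTR1 (TAZ), the TEAD transcription factors TEAD1, TEAD3 and TEAD4, the kinases LATS1 and LATS2, and the target genes CCN1, CCN2 and AMOTL2. They were taken by symbol from the 60656 genes of the count table, and all 10 were found. RNA came from parental cells, grown for 4 days with abemaciclib at 500 nM or with an equal volume of DMSO, with 3 libraries in each group from cultures that the study describes as independent. The labels give no cell density at harvest. The cells were a single established line, kept in the same serum-containing medium in both groups, and the RB1 knockout cells of the study were not analysed here.

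In the Hippo pathway, the MST kinases (STK3 and STK4), with the scaffold SAV1, activate LATS1 and LATS2 with their MOB1 partners. Active LATS kinases phosphorylate YAP and TAZ, which are then held in the cytoplasm and degraded. When LATS activity is low, YAP and TAZ enter the nucleus, bind TEAD factors and switch on genes that include CCN1, CCN2 and AMOTL2, and LATS2 and AMOTL2 feed back to restrain YAP. The pathway is known for its response to cell contact, cell shape and the actin cytoskeleton, and in the breast YAP and TAZ activity is best known from basal-like cells. It acts largely by phosphorylation and location of proteins, which mRNA counts do not show.

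The promoter sequences are shown because CCN2 is the classical TEAD target and its promoter carries the TEAD core motif several times. RefSeq promoters (GRCh38.p14, 250 bases before to 50 bases after a transcript start) were matched by symbol for 7 of the 10 genes, with 10 promoters in all. TEAD1, TEAD4 and CCN1 had no entry. The core motif GGAATG was searched on both strands and was present in 14% of 35116 promoters of the same length. It occurred 3 times in the CCN2 promoter, at −169, −104 and −95 from the start, and 3 or more occurrences were found in 0.128% of all promoters. A single copy was found in 1 of the 2 AMOTL2 promoters, in the YAP1 promoter and in the LATS2 promoter, where it begins at +10. None was found in the promoters of TEAD3, LATS1 or WWTR1, which says only that these letters are not in these windows. The stretches around the motif are given below 5′ to 3′ on the strand of the gene, with the motif, or its reverse complement in AMOTL2, in capitals.
CCN2, chr6:131951450-131951553, minus strand: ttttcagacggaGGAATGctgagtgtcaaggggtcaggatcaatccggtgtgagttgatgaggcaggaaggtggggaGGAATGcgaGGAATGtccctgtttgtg
AMOTL2, chr3:134374499-134374528, minus strand: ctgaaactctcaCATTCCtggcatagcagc
YAP1, chr11:102110273-102110302, plus strand: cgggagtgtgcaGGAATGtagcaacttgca
LATS2, chr13:21061560-21061589, minus strand: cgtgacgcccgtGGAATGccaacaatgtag

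The E2F motif (TTTCCCGC or TTTGGCGC, in 2.27% of all promoters) and the CArG box of SRF (in 1.29%) were found in none of the 10 promoters. The AP-1 motif TGANTCA, present in 7.71% of all promoters, was found in 1 of the 2 LATS1 promoters. These matches describe the sequence and were not tied to binding or to a change in RNA.

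Libraries held 3317860 to 4013156 counts on genes. A count of 0 allows up to 3 counts in a library, which is 0.748 to 0.904 CPM (a gene's counts per 1000000 counts of its library), and this limit covers counting error only. Of the luminal markers examined, all 10 were detected, with summed levels of 9675 to 10070 CPM with DMSO and 13790 to 15260 CPM with abemaciclib, a sum in which TFF1 (622.4 and 3511 CPM on average) and KRT19 (3131 and 4280 CPM) weighed most in the difference. Of these markers, 4 were called higher and 1 lower (40% and 10%, against 12.5% and 13.3% of all genes tested). KRT18 was the lower one, averaging 689.4 CPM with DMSO and 542.7 CPM with abemaciclib (adjusted P = 0.00515, edgeR). The other 5, KRT8, FOXA1, GATA3, EPCAM and CDH1, did not pass. Of the 8 basal markers, KRT5, KRT14, TP63 and CNN1 had 0 counts in every library, and the list summed to 13.3 to 27.9 CPM with DMSO and 7.56 to 10.3 CPM with abemaciclib. Most of this sum was OXTR (9.85 and 6.74 CPM on average, not called) and ACTA2 (9.25 and 1.31 CPM, called lower). ACTA2 weighed most in the difference. Of 8 fibroblast markers, COL1A2, COL3A1, PDGFRA, PDGFRB and VIM were at 0 throughout, while COL1A1 was detected and the list summed to 10.4 to 15.8 CPM with DMSO and 10.4 to 15.7 CPM with abemaciclib. The 5 endothelial and the 5 leukocyte markers summed to at most 1.51 CPM in any library, with PECAM1, CDH5 and PTPRC at 0. As a check of the treatment, the proliferation marker MKI67 fell from 525.8 ± 31.4 CPM (SD, n = 3) to 5.00 ± 2.28 CPM (SD, n = 3; adjusted P = 4.61e-22, edgeR), and 11 of the 12 proliferation genes examined were lower (91.7%, against 13.3% of all genes tested).

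With DMSO, the members were expressed at low to middling levels. The kit reads the 3′ end of a transcript, so its counts are compared between genes without division by length. How evenly different transcripts are captured was not tested, so orders between genes, here and below, are orders of counts. In CPM scaled by the TMM method, TEAD4 was highest at 42.9 ± 4.38 (SD, n = 3), and its lowest library lay above the highest library of every other member. YAP1, AMOTL2 and TEAD1 followed, with means of 25.1, 23.7 and 20.4 CPM and ranges that overlapped. LATS1, CCN1, TEAD3 and LATS2 had means of 16.1, 12.7, 12.6 and 10.7 CPM, again with ranges that overlapped between neighbours. WWTR1 had a mean of 7.18 CPM and overlapped LATS2, and CCN2 was the lowest, at 1.77 CPM, with all its libraries below those of WWTR1. The median gene tested had 25.1 CPM, and 8 of the 10 members lay under it. With abemaciclib, CCN1, AMOTL2 and YAP1 headed the order, at 27.0, 26.7 and 26.3 CPM, and TEAD4 stood at 17.4 CPM.

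The effect of abemaciclib was tested in edgeR (quasi-likelihood F-test) over the 10863 genes with enough counts, of which 9 were members. CCN2 had too few counts for the test. At an adjusted P under 0.05, CCN1 rose and TEAD4 fell, and 7 members did not pass. The 2 called members are 22.2% of those tested, against 25.7% of all genes tested (12.5% higher and 13.3% lower), so the share of members called was close to that of genes at large. The groups did not overlap in 3 of the 9 members (33.3%), CCN1, TEAD3 and TEAD4, against 39.1% of all genes tested. The median log2 fold change was 0.06 over the members and −0.00 over all genes tested, and the former turned to −0.14 with no filter on low counts, to −0.04 without DMSO replicate 1 and to −0.12 without abemaciclib replicate 1. These are values of RNA from whole cultures, in which fewer expressing cells and less RNA per cell cannot be told apart.

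**Figure D1:**
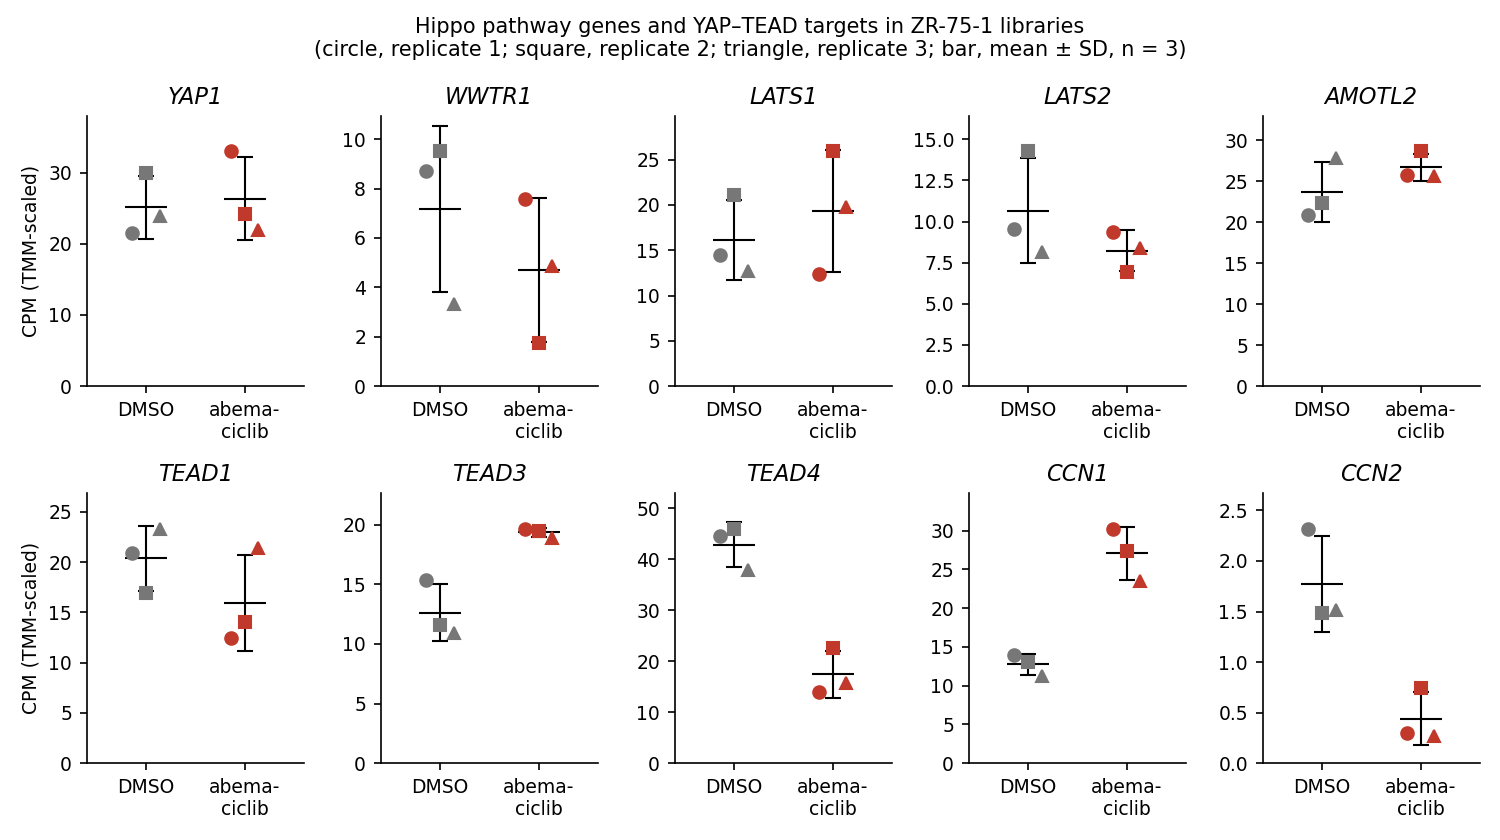
Each panel plots 1 gene, with CPM scaled by TMM on the vertical axis (from 0, a separate scale per gene) for 3 DMSO libraries (grey) and 3 abemaciclib libraries (red), and the bar gives the mean ± SD. CCN1 and TEAD3 lie higher and TEAD4 and CCN2 lower in every abemaciclib library than in any DMSO library, while the groups of the other 6 genes overlap.

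YAP1, on chromosome 11 of GRCh38 from 102110447 to 102233424, encodes the coactivator YAP. It had 21.5, 30.0 and 23.9 CPM in the DMSO libraries and 33.0, 24.2 and 21.9 CPM in the abemaciclib libraries. The groups overlapped, with abemaciclib replicate 1 above every DMSO library. The log2 fold change was 0.06 (standard error 0.21, 95% interval −0.37 to 0.50, adjusted P = 0.868, edgeR quasi-likelihood F-test), and its sign turned when DMSO replicate 1 (−0.04) or abemaciclib replicate 1 (−0.12) was left out.

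WWTR1, on chromosome 3 from 149517235 to 149736714, encodes TAZ, the close relative of YAP. It had 8.70, 9.51 and 3.33 CPM with DMSO and 7.56, 1.73 and 4.86 CPM with abemaciclib. Its libraries scattered more than counting alone gives, with a coefficient of variation of 46.8% with DMSO and 61.9% with abemaciclib, against 20.3% and 24.5% from counting. The log2 fold change of −0.63 had a wide interval, −1.63 to 0.37 (adjusted P = 0.381 from the same test). YAP1 made up 78.3% ± 8.56 of the summed YAP1 and WWTR1 level with DMSO and 85.5% ± 6.79 with abemaciclib (SD, n = 3 in each group), so YAP1 was the more abundant of the pair in both groups. The log2 ratio of WWTR1 to YAP1 differed by −0.75 between the groups, which overlapped (exact permutation test, two-sided, P = 0.4).

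The kinases that act on YAP and TAZ did not pass the test. LATS1, on chromosome 6 from 149658153 to 149718105, had 14.5, 21.1 and 12.7 CPM with DMSO and 12.4, 25.9 and 19.7 CPM with abemaciclib. Its log2 fold change was 0.27 (95% interval −0.27 to 0.82, adjusted P = 0.502, edgeR). LATS2, on chromosome 13 from 20973036 to 21061586, is both a kinase of the pathway and a YAP–TEAD target. It had 9.57, 14.3 and 8.18 CPM with DMSO and 9.38, 6.91 and 8.38 CPM with abemaciclib, a log2 fold change of −0.38 (95% interval −1.06 to 0.30, adjusted P = 0.446, edgeR). In either kinase the groups overlapped. LATS1 made up 59.7% to 60.9% of the summed level of the pair in the DMSO libraries and a more variable 56.9% to 79.0% in the abemaciclib libraries.

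TEAD4, on chromosome 12 from 2959330 to 3040676, encodes a DNA-binding partner of YAP and TAZ. It had 44.7, 46.0 and 37.9 CPM in the DMSO libraries and 13.9, 22.7 and 15.7 CPM in the abemaciclib libraries. The highest abemaciclib library thus lay well below the lowest DMSO library. The log2 fold change was −1.29 (standard error 0.20, 95% interval −1.70 to −0.87, adjusted P = 1.75e-05, edgeR quasi-likelihood F-test), a level 0.41 times that with DMSO. The fall passed the threshold in all 12 alternative analyses, with log2 fold changes from −1.53 to −1.15 and adjusted P from 1.58e-08 to 0.000535.

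TEAD3, on chromosome 6 from 35473597 to 35497079, moved the other way in its values. It had 15.4, 11.6 and 10.9 CPM with DMSO and 19.7, 19.5 and 18.9 CPM with abemaciclib. The groups did not overlap, and the abemaciclib libraries lay within a narrow band. The log2 fold change was 0.61 (standard error 0.25, 95% interval 0.11 to 1.12), which did not pass after adjustment (adjusted P = 0.0666, edgeR) and did not pass in any of the 12 alternatives (adjusted P from 0.0509 to 0.184). TEAD1, on chromosome 11 from 12674421 to 12944737, had 20.9, 16.9 and 23.3 CPM with DMSO and 12.4, 14.1 and 21.3 CPM with abemaciclib, with overlapping groups. Its log2 fold change was −0.35 (95% interval −0.86 to 0.16, adjusted P = 0.329, edgeR).

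In the summed TEAD level, the shares of TEAD3 and TEAD4 did not overlap between the groups, while those of TEAD1 and TEAD2 did. TEAD2, outside the members, was the scarcest, with 4.12 ± 2.04 CPM with DMSO and 2.80 ± 1.79 CPM with abemaciclib (SD, n = 3 in each group), and its 3′ end overlaps CD37 on the opposite strand. TEAD4 made up 53.6% ± 4.59 of the summed TEAD level with DMSO and 31.4% ± 6.96 with abemaciclib (SD, n = 3 in each group). TEAD3 made up 15.7% ± 1.66 with DMSO and 35.3% ± 5.22 with abemaciclib. TEAD4 was thus the most abundant TEAD transcript in each DMSO library, and with abemaciclib TEAD3 led in replicate 1, TEAD4 in replicate 2 and TEAD1 in replicate 3. The summed TEAD level ran from 74.5 to 87.3 CPM with DMSO and from 47.8 to 60.8 CPM with abemaciclib. In this sum, which is a description only, TEAD4 had the largest mean share with DMSO and TEAD3 with abemaciclib. Shares of a sum are tied, so a fall of TEAD4 by itself raises the share of TEAD3, whose own change did not pass. Within libraries, the log2 ratio of TEAD4 to TEAD1 went from 1.07 ± 0.37 to 0.14 ± 0.56, and that of TEAD3 to TEAD1 from −0.69 ± 0.35 to 0.32 ± 0.44 (SD, n = 3 in each group). Neither ratio overlapped between the groups, and both gave P = 0.1, the least that 3 libraries against 3 allow in a two-sided exact permutation test (adjusted P = 0.167 over 5 ratios).

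**Figure D2:**
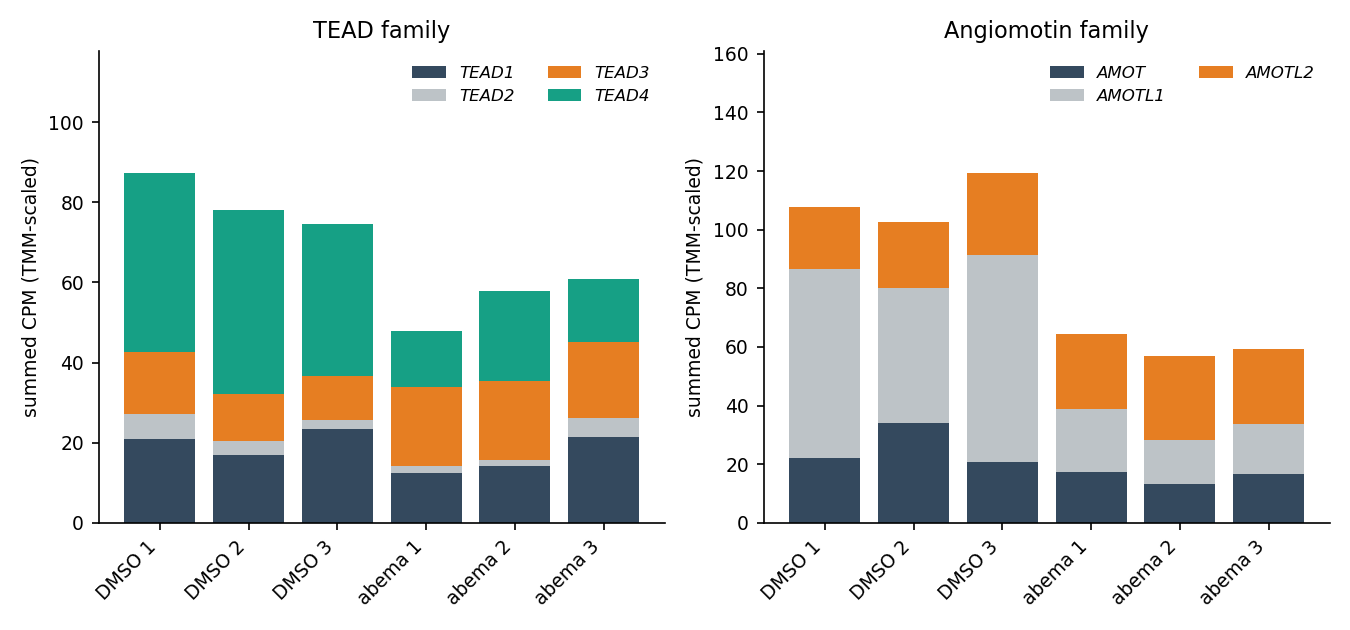
Stacked bars give the summed CPM (scaled by TMM, axis from 0) of the TEAD genes (left) and the angiomotin genes (right) in each of the 6 libraries, coloured by gene. The TEAD4 part of the bar is smaller and the TEAD3 part larger in each abemaciclib library, and the AMOTL1 share has a mean of 54.7% of the angiomotin sum with DMSO and 29.5% with abemaciclib, while AMOTL2 runs from 20.9 to 28.6 CPM over the 6 libraries.

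Of the 3 members taken as target genes at the outset, CCN1 was called higher, AMOTL2 did not pass and CCN2 had too few counts for the test. CCN1, on chromosome 1 from 85580761 to 85584589, encodes CYR61, a secreted matrix-associated protein that binds integrins. It had 13.9, 13.1 and 11.2 CPM with DMSO and 30.3, 27.4 and 23.5 CPM with abemaciclib. The lowest abemaciclib library thus lay well above the highest DMSO library. The log2 fold change was 1.08 (standard error 0.23, 95% interval 0.62 to 1.55, adjusted P = 0.000592, edgeR quasi-likelihood F-test), a level 2.12 times that with DMSO. The rise passed in all 12 alternatives, with log2 fold changes from 1.00 to 1.17 and adjusted P from 0.000149 to 0.00493.

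CCN2, on chromosome 6 from 131948176 to 131951372, encodes CTGF, a paralogue of CCN1 whose promoter holds the 3 TEAD core motifs shown above. It was close to the limit of detection, with 8, 5 and 5 counts in the DMSO libraries and 1, 3 and 1 in the abemaciclib libraries. Each abemaciclib library lay below each DMSO library, and none exceeded 3 counts. From the summed counts, the level with abemaciclib was 0.254 times that with DMSO, with an exact 95% interval of 0.0737 to 0.710 that covers counting error only. With no filter on low counts, edgeR gave an adjusted P of 0.361, and DESeq2 gave no adjusted P, so a change of CCN2 was not established at this depth. The log2 ratio of CCN1 to CCN2 was 2.51, 3.02 and 2.77 in the DMSO libraries and 6.07, 4.99 and 5.87 in the abemaciclib libraries. These ratios did not overlap (difference 2.88, P = 0.1, the least possible, and adjusted P = 0.167 in the same exact permutation test). The low counts of CCN2 make them imprecise, and the difference was 2.32 with a pseudocount of 2 counts.

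AMOTL2, on chromosome 3 from 134355347 to 134375479, encodes an angiomotin that binds YAP and promotes its retention outside the nucleus. It had 20.9, 22.3 and 27.9 CPM with DMSO and 25.7, 28.6 and 25.7 CPM with abemaciclib. The groups overlapped through DMSO replicate 3. Its log2 fold change was 0.17 (95% interval −0.24 to 0.59, adjusted P = 0.584, edgeR).

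**Figure D3:**
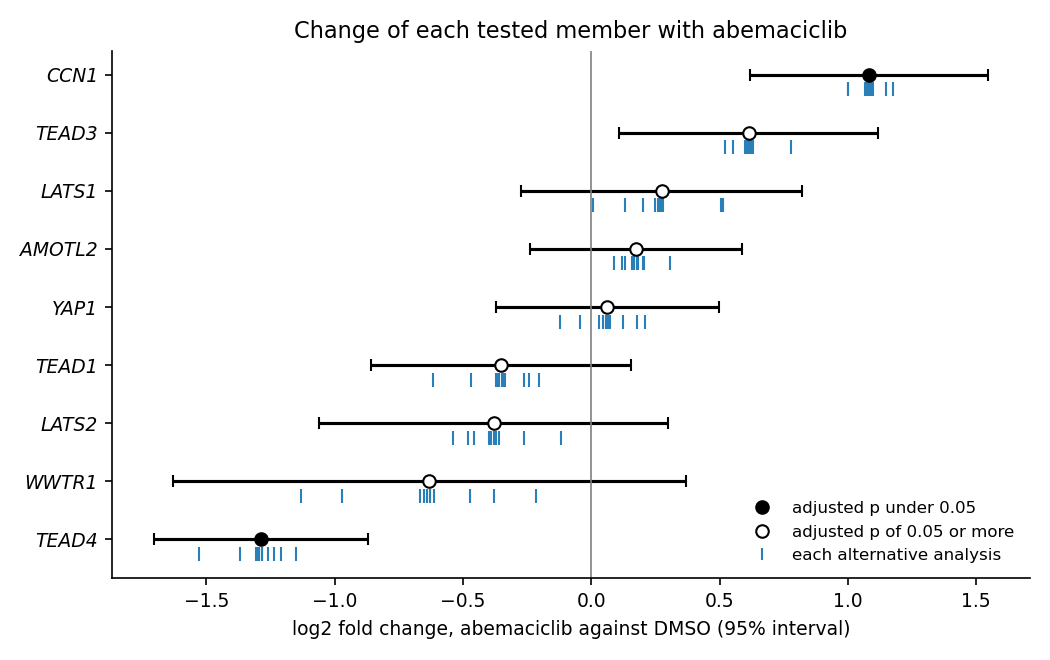
Points give the log2 fold change of each tested member, abemaciclib against DMSO, with its 95% interval, filled where the adjusted P is under 0.05, and blue ticks give the value in each alternative analysis. CCN1 (1.08) and TEAD4 (−1.29) are filled and keep their side of 0 in each alternative, and the intervals of the others, except that of TEAD3 (0.11 to 1.12), include 0.

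The angiomotins outside the members fell. AMOTL1 had 64.7, 46.0 and 70.6 CPM with DMSO and 21.5, 14.8 and 17.3 CPM with abemaciclib, so the groups lay far apart. AMOTL1 changed by −1.77 in log2 units, with a standard error of 0.19 (adjusted P = 4.53e-08, edgeR). AMOT had 22.0, 34.2 and 20.9 CPM with DMSO and 17.2, 13.3 and 16.5 CPM with abemaciclib, a log2 fold change of −0.72 (adjusted P = 0.0244, edgeR), and its call was lost with DESeq2, without DMSO replicate 2 and without abemaciclib replicate 2 (log2 fold changes from −0.84 to −0.46 over the alternatives). The share of AMOTL2 in the angiomotin sum was 21.5% ± 1.98 with DMSO and 44.5% ± 5.39 with abemaciclib (SD, n = 3 in each group). AMOTL2 itself did not pass, and its share rose as the sum became smaller. That sum averaged 109.8 CPM with DMSO and 60.2 CPM with abemaciclib. Of the 11 paralogues and TEAD cofactors listed, 4 were tested, and 2 were lower and 0 higher by edgeR (0 higher also at an unadjusted P under 0.05 and with DESeq2), 50% lower against 13.3% of all genes tested. VGLL4, a TEAD cofactor that competes with YAP, differed by 0.17 in log2 units (adjusted P = 0.495, edgeR), and its 3′ end overlaps ATG7 on the opposite strand. The CCN paralogues CCN3, CCN4, CCN5 and CCN6 had at most 1 count in any library.

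Among 48 other regulators of the pathway, 42 entered the test, of which 4 rose and 6 fell, 23.8% against the 25.7% of all genes. The median log2 fold change was 0.10. The core upstream of LATS did not pass. STK4 (MST1), the kinase that phosphorylates LATS, had 49.6, 51.7 and 57.2 CPM with DMSO and 71.4, 63.2 and 70.5 CPM with abemaciclib, groups that did not overlap. Its log2 fold change of 0.37 (adjusted P = 0.0503, edgeR) passed the threshold in 1 of the 12 alternatives. STK3 (MST2), SAV1, MOB1A and NF2 (merlin, which recruits LATS to the membrane) had log2 fold changes of 0.21, −0.11, 0.11 and 0.19, with overlapping groups, and the 3′ end of SAV1 overlaps ATL1 on the opposite strand.

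Regulators that passed were found around this core. WWC1 (KIBRA), a scaffold that promotes LATS activity, rose by 0.82 on the log2 scale (adjusted P = 0.00483, edgeR), and MARK4, a kinase known to restrain the pathway, rose by 0.50 (adjusted P = 0.00351). TAOK1 and PATJ were higher by 0.28 and 0.49 in calls that were lost in 7 and 10 of the 12 alternatives, the omission of DMSO replicate 1, DMSO replicate 2 or abemaciclib replicate 2 among them in both genes. MAP4K4, a kinase that can phosphorylate LATS, had 50.5, 39.2 and 32.7 CPM with DMSO and 17.2, 21.7 and 21.1 CPM with abemaciclib. It had the steepest fall among the regulators tested, −1.02 in log2 units (adjusted P = 0.000277, edgeR). The polarity protein SCRIB fell by 0.69, the phosphatase PTPN14, which binds YAP, by 0.56, and STK24, whose 3′ end overlaps FARP1 on the opposite strand, by 0.51. MAP4K5 fell by 0.52, a call that DESeq2 did not make and that was lost when DMSO replicate 1, DMSO replicate 2 or abemaciclib replicate 2 was left out. WWC3, a relative of WWC1, fell by 0.50, a call lost without abemaciclib replicate 2.

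The share of wider YAP–TEAD targets called was close to that of all genes. Of 31 listed outside the members, 18 were tested and 27.8% of these were called, against 25.7% of all genes. The calls were 1 higher and 4 lower (5.56% and 22.2% of those tested, against 12.5% and 13.3% of all genes). The median log2 fold change was −0.27, and −0.51 with no filter on low counts. ANKRD1 and AXL, which are widely used as YAP markers, had 0 counts in every library. BIRC5 (survivin), also known as a mitotic gene, fell by 3.32 in log2 units (adjusted P = 1.99e-16, edgeR) beside the fall of MKI67 given above, and the part of proliferation in it was not tested. CCDC80 had 14.5, 7.72 and 5.76 CPM with DMSO and 1.21, 2.47 and 1.62 CPM with abemaciclib, a log2 fold change of −2.36 (adjusted P = 0.000653, edgeR). AMOTL1 and PTPN14, counted in the lists above as well, were the other called falls. The 1 call in the higher direction was not made by DESeq2 and was lost when DMSO replicate 1, DMSO replicate 2 or abemaciclib replicate 2 was left out.

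Because CCN1 and CCN2 are also known as targets of SRF, the factor that couples actin dynamics to transcription, SRF, its coactivators and actin cytoskeleton genes were read from the same fit. Of 21 listed, 15 were tested, and 7 were lower and 0 higher by edgeR (1 higher, TPM1, at an unadjusted P under 0.05, and 0 higher with DESeq2), 46.7% against 13.3% of all genes lower, with a median log2 fold change of −0.40. ACTA2 (smooth muscle actin, also among the basal markers) had 6.09, 8.32 and 13.3 CPM with DMSO and 1.82, 0.493 and 1.62 CPM with abemaciclib, a log2 fold change of −2.82 (adjusted P = 0.000191, edgeR). Its 3′ end overlaps ACTA2-AS1 on the opposite strand. TPM4 (tropomyosin) fell by 0.69, TAGLN2 (transgelin 2) by 0.58, ACTG1 (cytoplasmic actin) by 0.49 and TLN1 (talin) by 0.47. SRF itself had 66.0 ± 11.7 CPM with DMSO and 62.4 ± 13.2 CPM with abemaciclib (SD, n = 3 in each group), and its log2 fold change was −0.08 (adjusted P = 0.769, edgeR). ACTB and MYH9, the remaining called falls, changed by −0.43 and −0.40 in log2 units (adjusted P = 0.000436 and 0.00739, edgeR). The 8 genes tested in this list that were not called include SRF. CCN1 rose in the same comparison, and a link between its rise and these genes was not tested.

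**Figure D4:**
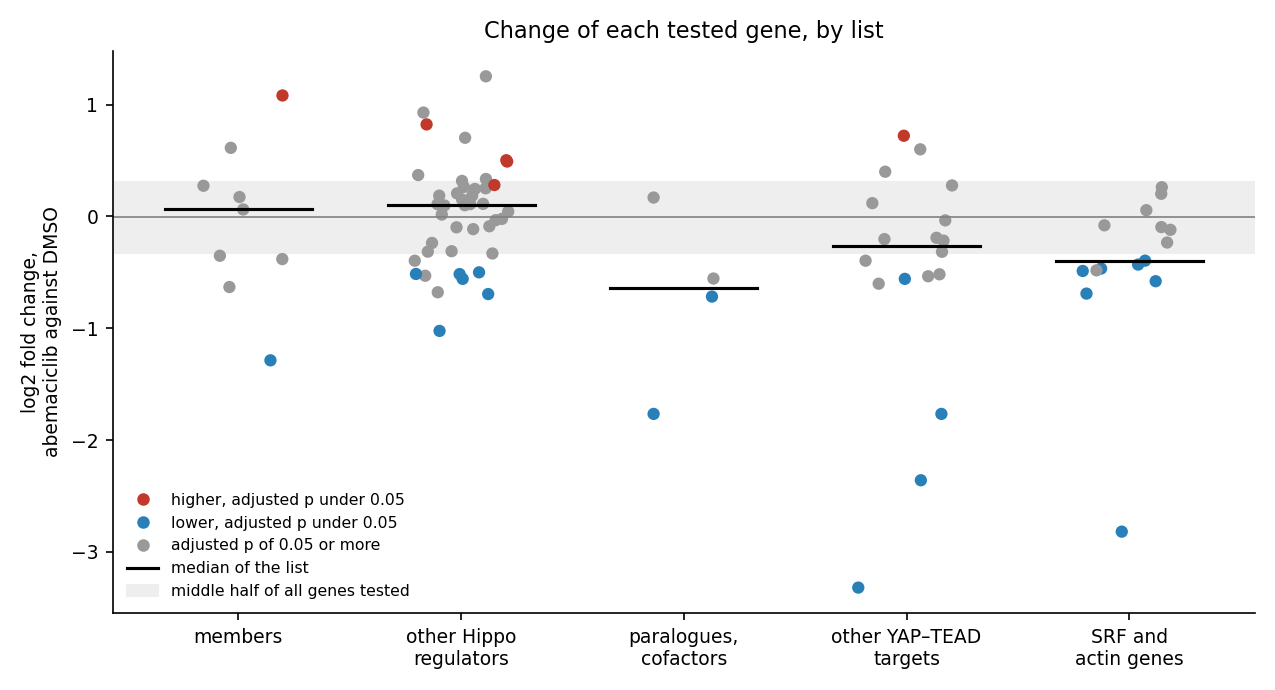
Each point is the log2 fold change of a tested gene, abemaciclib against DMSO, grouped by list, red or blue where the adjusted P is under 0.05, with a black line at the list median and a grey band from the 25th to the 75th percentile of all genes tested (−0.32 to 0.31). The median of the members (0.06) and of the other regulators (0.10) lies within the band, as does that of the other targets (−0.27). Medians of the SRF and actin genes (−0.40) and of the paralogues and cofactors (−0.64, 4 genes tested) lie under it.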

How the data were processed

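RNA from parental ZR-75-1 cells (3 DMSO and 3 abemaciclib libraries) was made into 3′ mRNA libraries (Lexogen QuantSeq) and sequenced single-end. According to the study's methods and processing notes, reads were trimmed with BBDuk, aligned with STAR (2.7.5b) to hg38 and counted per gene with featureCounts (2.0.1). The strand setting is not given in the sources used here, so genes whose 3′ ends overlap on opposite strands were named as such. The authors deposited whole-number counts per gene, not normalized. Symbols were matched for 60401 of 60656 gene identifiers, and gene positions were read from the GRCh38 annotation.

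Counts were tested with edgeR (4.0.16) after filterByExpr and TMM scaling, by the quasi-likelihood F-test, with P-values adjusted by Benjamini-Hochberg over 10863 genes and a threshold of 0.05. CPM were computed with TMM-scaled totals. Ratios between members used counts with a pseudocount of 0.5 and an exact permutation test, two-sided. The common coefficient of biological variation was 13.2%. Alternatives were DESeq2 (1.42.0), DESeq2's size factors, total counts, other filters, a replicate block and the omission of each library. In edgeR, P-values and intervals rest on the spread between the 3 cultures of a group, pooled in large part over the other genes tested. P-values of the ratios rest on reordering the group labels of the libraries. Members and gene lists were chosen with earlier results of these data known. The genes named are the members, preset defining genes of the pathway, and in each other pathway list, marker lists aside, up to 5 called genes with the largest rise and up to 5 with the largest fall. WWC3, TPM1, ACTB, MYH9, OXTR, the CCN paralogues and the luminal markers were named after their values were seen. By exception, the called rise among the other YAP–TEAD targets is not reported by name here.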

Additional observations from a re-analysis of the deposited data

How the results depend on the processing

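The calls of CCN1 and TEAD4 held in all 12 alternatives, and no other member passed in any. YAP1 reversed to −0.04 without DMSO replicate 1 and to −0.12 without abemaciclib replicate 1 (log2 fold changes from −0.12 to 0.21 over the omitted libraries). The 4 higher regulators became 2 with total counts only, with no filter on low counts and with the replicate block, and 2 to 4 when a library was left out. The 2 lower paralogues became 1 with DESeq2 and 1 to 2 when a library was left out, and the 1 higher target became 0 with DESeq2 and 0 to 1 when a library was left out. The cause was not tested. The table as a whole had 1354 called rises and 1442 called falls, against 1069 and 1165 by DESeq2 and 981 to 1412 and 1132 to 1529 when a library was left out. The highest values, 1412 and 1529, came without abemaciclib replicate 3, which differed most from its group. Chi-square per degree of freedom was 6.98 and 7.41 between it and replicates 1 and 2, and 3.47 between those replicates. Between DMSO libraries it was 2.83 to 4.21. The counts showed no pairing of the samples by replicate number (correlations of −0.0434, 0.00705 and −0.0893 between same-numbered deviations, with 1 of 3 DMSO libraries closest to its own number). This check does not show how the cultures were set up. The replicate block gave 1139 higher and 1280 lower. WWTR1 could not be tested with at least 10 counts in every library. CCN2, at 1 to 8 counts a library, did not pass the filter on low counts, and the intervals of WWTR1 and LATS2 were wide.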
